A study of Mus musculus with 3 samples.

Results

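Cytosolic ribosomal protein genes were described in single cells of mouse vascular tissue. They were chosen by symbol, as names that start with Rpl or Rps followed by a digit, together with Rplp0, Rplp1, Rplp2 and Rpsa. Of 32285 listed genes, 86 symbols met this rule, and 85 of them had at least 1 UMI (unique molecular identifier, the tag that marks 1 captured RNA molecule). The rule left out 10 Rps6k kinase symbols and 5 names that contain -ps. By name the 86 symbols divided into 77 core genes (46 of the large 60S subunit and 31 of the small 40S subunit), 7 paralogues of core genes, and 2 genes that encode no ribosomal protein (Rpl7l1 and Rps19bp1). All 77 core genes were measured. Fau and Rack1, which also encode ribosome components, fall outside the rule and are given separately.

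The cytosolic ribosome is built of a large and a small subunit, and each core gene supplies 1 protein of the particle in equal numbers, apart from the stalk proteins. Their messages begin with a run of pyrimidines directly at the transcription start, the 5' terminal oligopyrimidine (5'TOP) motif, through which LARP1, the 4E-BP proteins and mTOR complex 1 control their translation. In tissues, dividing and secreting cells are known for high ribosomal protein messages, and terminally differentiated granulocytes such as neutrophils for low ones. Paralogues such as Rpl3l, Rpl10l and Rpl39l are known from muscle or testis.

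The 3 groups, all of wild-type mice and all labelled 3 weeks, were given vehicle, sunitinib, or sunitinib plus Yoda1. Sunitinib is an inhibitor of tyrosine kinases such as the receptors for VEGF and PDGF, and Yoda1 is an agonist of the stretch-activated cation channel PIEZO1. Arteries were digested, cells were suspended in a MACS buffer, and transcript 3' ends were captured with the 10x Genomics Chromium kit; the sources used here do not give sex, age, dose or the number of animals. The title of the third library names only Yoda1, and it was placed in the group with both compounds by the design text, where Yoda1 appears in that group alone. With 1 library in each group, differences between groups were not tested and have no replicate check, and all intervals are exact 95% intervals of counting error alone.

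Kept cells numbered 3947, 4148 and 3130 in the vehicle, sunitinib and sunitinib plus Yoda1 libraries, with medians of 16561, 15902.5 and 5451.5 UMIs. The first and second libraries were almost wholly smooth muscle-like cells (3745 and 3909), and the third held mainly B cell-like (1047) and T cell-like (743) cells with 95 smooth muscle-like and 392 endothelial-like ones. Its labelled tissue, vascular tissue, therefore rests on a minority of its cells. Vehicle and sunitinib were processed with Cell Ranger 6.0.0 and the third library with 7.1.0, and from version 7 on the program counts intronic reads by default. Genes in the quintile with the longest introns took 12.6% and 12.7% of smooth muscle-like UMIs in the vehicle and sunitinib libraries and 22.3% in the third. Core ribosomal protein genes have short introns (66 of 77 lie in the quintile with the shortest, up to 3590 bases), and each share below is relative to all genes of the class unless short-intron genes are named. The version, the library and the treatment with Yoda1 cannot be told apart.

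Annotated starts of these genes were searched for the pyrimidine run described above. The RefSeq promoter table (GRCm38.p6) held 57 of the 77 core genes. A run of 8 or more pyrimidines lay within 15 bases of an annotated start in 25 of them (43.9%), against 13.8% of 26959 other genes. The rest of the 57 core genes showed no run of that length there. The windows below reach 15 bases to either side of the annotated start and are written on the gene's strand, 5′ to 3′, with the pyrimidine run in capitals. The first 4 belong to genes of short coding sequence that stood lower with sunitinib, and the other 4 to genes of long coding sequence, whose log2 ratios in smooth muscle-like and endothelial-like cells lay between -0.001 and 0.089.
Rpl35 (chr2:39005117-39005146, minus strand): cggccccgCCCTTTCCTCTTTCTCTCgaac
Rpl38 (chr11:114668565-114668594, plus strand): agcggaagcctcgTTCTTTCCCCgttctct
Rps27 (chr3:90213634-90213663, minus strand): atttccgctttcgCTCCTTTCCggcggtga
Rplp2 (chr7:141447636-141447665, plus strand): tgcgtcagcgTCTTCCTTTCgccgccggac
Rpl7a (chr2:26910792-26910821, plus strand): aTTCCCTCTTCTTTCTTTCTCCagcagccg
Rpl15 (chr14:18270972-18271001, minus strand): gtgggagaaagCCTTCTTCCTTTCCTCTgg
Rpl4 (chr9:64173372-64173401, plus strand): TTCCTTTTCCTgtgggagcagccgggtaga
Rps6 (chr4:86857353-86857382, minus strand): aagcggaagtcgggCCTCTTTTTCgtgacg

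The windows shown all hold runs of 9 to 21 pyrimidines, so they do not compare the sets. Shorter runs also occurred. Among genes lower with sunitinib, the longest run was 3 bases in Rpl41 and Rpl10 and 4 in Rps28. Among the highest in smooth muscle-like cells, it was 5 bases in Rplp0 and 4 in Rpl5. A relation of the run with the ratios was not tested. CTTTCC, which can lie within such a run, occurred within 25 bases of the start on the gene's strand in 17.5% of the core genes and 2.88% of the others. CGGAAG, the core of ETS-type sites, occurred on either strand of the 300-base promoter window in 70.2% of the core genes (40 of 57) and 18.7% of the others. GCCATCTT, the letters of a YY1-type site, was found on either strand in 8.77% and 3.18%. These matches describe letters in a window and show no binding.

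Cell classes of the sunitinib plus Yoda1 library differed widely in how much of their RNA came from ribosomal protein genes. The core genes took 30.56% of UMIs in T cell-like cells (30.52 to 30.60; 743 cells) and 22.29% in B cell-like cells (22.26 to 22.32; 1047 cells). Macrophage-like cells stood at 13.72% (13.67 to 13.76; 217 cells) and fibroblast-like cells at 12.85% (12.80 to 12.89; 154 cells). Smooth muscle-like cells stood at 9.36% (9.31 to 9.42) and endothelial-like cells at 8.86% (8.82 to 8.90). Schwann-like cells had 6.48% (6.38 to 6.57; 66 cells), and neutrophil-like cells had the lowest share, 3.26% (3.19 to 3.34; 59 cells). The classes were formed without the ribosomal protein genes, so the order was not built into them. When every cell was thinned to 1500 UMIs, the median cell held 31.2% in the T cell-like class, with a 10th to 90th percentile range of 17.5 to 39.5, and 2.80% (1.49 to 4.28) in the neutrophil-like class. These ranges did not overlap. The unthinned medians were 31.1% and 2.70%, and thinning left out 1 of 743 and 4 of 59 cells as too shallow. Smooth muscle-like cells (4.13 to 13.7) and endothelial-like cells (2.67 to 14.6) overlapped almost wholly. Other neighbours in the order overlapped too, some of them only in part. The Schwann-like range began at 3.24, not far below the upper end of the neutrophil-like one. The B cell-like range ended at 28.27, well below the upper end of the T cell-like one.

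**Figure D1:**
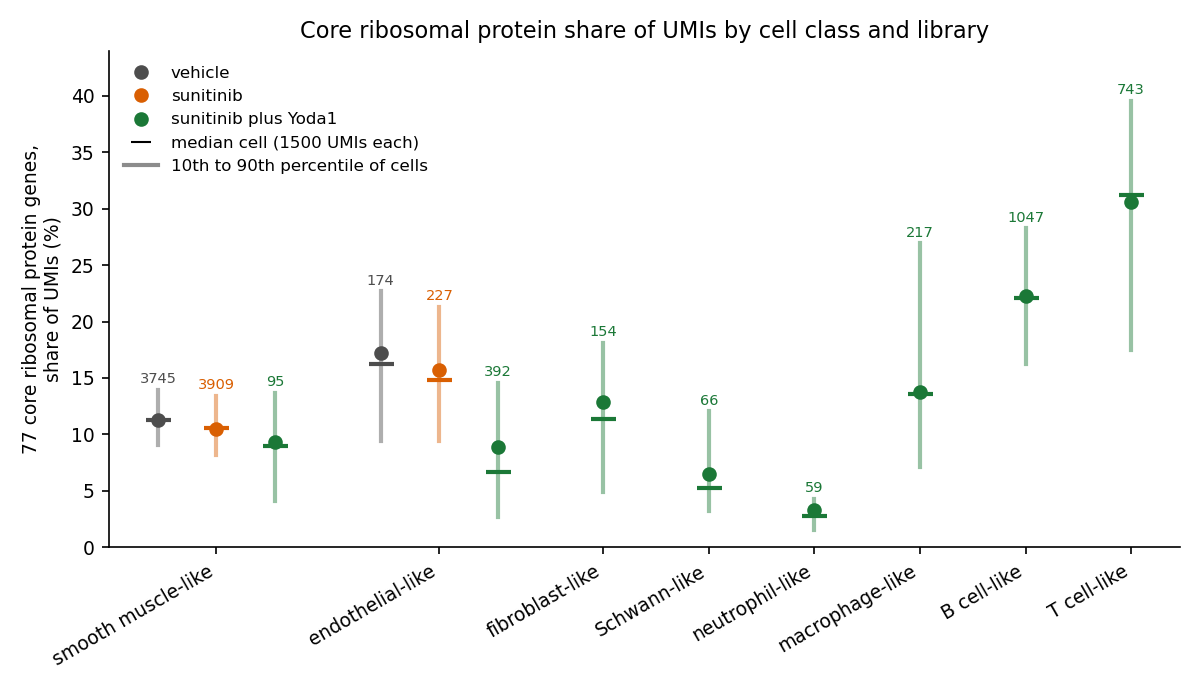
Share of UMIs (%) from the 77 core genes (vertical axis) by cell class and library. Dots are shares of the summed UMIs, dashes the median cell and bars the 10th to 90th percentile of cells thinned to 1500 UMIs, and numbers above are cells. T cell-like cells stand highest (30.56%) and neutrophil-like cells lowest (3.26%), and endothelial-like cells stand at 17.18%, 15.67% and 8.86% in vehicle, sunitinib and sunitinib plus Yoda1.

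T cell-like clusters were themselves unequal. The 3 clusters with Lef1, a transcription factor of naive T cells, among their leading genes had core shares of 33.12% (143 cells), 32.90% (358 cells) and 28.75% (95 cells). A cluster with Ctla4 and Ikzf2, genes known from regulatory T cells, had 22.43% (101 cells), and one led by the cytokine receptor genes Il7r and Il18r1 had 19.73% (46 cells). Among macrophage-like cells, the cluster with Lyz2 and Pf4 had 13.27% (132 cells). The cluster led by Ccl8, Cd209b and Marco had 17.56% (85 cells), at a median of 1420 UMIs a cell against 12813.5. The cells in the erythroid class, which gave 35.8% of their UMIs to haemoglobin genes and were also led by B and T cell genes, stood at 15.94%.

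The vehicle and sunitinib libraries allow the vessel wall itself to be compared, and the core genes took a smaller share of UMIs with sunitinib in both classes. In smooth muscle-like cells the share was 11.27% in vehicle (11.27 to 11.28) and 10.51% in sunitinib (10.50 to 10.52). In endothelial-like cells it was 17.18% (17.13 to 17.23) and 15.67% (15.62 to 15.72). Endothelial-like cells thus stood above smooth muscle-like cells in both of these libraries. In the third the order depended on how classes were formed: 9.36% in smooth muscle-like and 8.86% in endothelial-like cells by cluster, but 9.70% and 14.8% when classes were taken from marker UMIs of single cells. The range over single cells was wider than these differences. Thinned smooth muscle-like cells ran from 9.07% to 13.9% in vehicle and from 8.20% to 13.4% in sunitinib, and endothelial-like cells from 9.45% to 22.7% and from 9.39% to 21.3%. The share was lower with sunitinib in 7 of 8 smooth muscle-like clusters, for example 11.12% against 10.29% in cluster 3 (1019 and 323 cells). In the remaining cluster, numbered 9, whose cells had few UMIs (medians of 1622 and 960), it stood at 6.40% in vehicle and 11.35% in sunitinib.

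The mitochondrial share of the cells moved with this difference. Mitochondrial genes gave 6.32% of smooth muscle-like UMIs in vehicle and 7.04% in sunitinib. When the vehicle smooth muscle-like cells were ranked by mitochondrial share, the lowest tercile had a core share of 11.63% and the highest 10.96%. In sunitinib these were 11.03% and 10.04%. The lowest terciles, with median mitochondrial shares of 5.11% in vehicle and 5.32% in sunitinib, thus still differed in core share. Among smooth muscle-like cells of up to 5% mitochondrial UMIs (546 and 502 cells) the core shares were 11.96% and 11.98%, and the difference between the libraries was gone. In endothelial-like cells of up to 5% the share stayed lower with sunitinib. Without mitochondrial and haemoglobin genes in the denominator, smooth muscle-like cells stood at 12.04% in vehicle and 11.31% in sunitinib. The part of the mitochondrial share in the difference was not tested further.

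Gene by gene, the lower ratios lay mostly in genes of short coding sequence. Of the 77 core genes, 48 had a log2 ratio of CPM (UMIs of the gene scaled to a common total in each class) below 0 in smooth muscle-like cells, where 35.7% of the 13942 genes measured did, and 29 lay above 0 (64.3%). At least 1.5-fold lower were 5 core genes (4.94% of all genes), and 0 were 1.5-fold higher (7.18%). The interval lay below 0 for 47 core genes (18.0%) and above 0 for 28 (36.6%). The median log2 ratio over the core genes was -0.05, beside 0.09 over all genes, and the ratio of the summed UMIs was -0.10 (-0.102 to -0.099). In endothelial-like cells 56 of 77 were below 0 (37.0% of 9717 genes) and 21 above (63.0%), and 7 were at least 1.5-fold lower (5.72%) and 0 higher (11.1%). The interval lay below 0 for 40 (6.42%) and above 0 for 7 (11.6%). The median there was -0.08, beside 0.11 over all genes, and the summed ratio -0.13 (-0.14 to -0.13). The smooth muscle-like median turned to 0.06 among cells of up to 5% mitochondrial UMIs, with 28 genes below 0 and 1 at least 1.5-fold lower. The endothelial-like median turned to 0.003, and the count to 2, when only genes of short introns made up the denominator. The medians and shares over all genes were not taken again under either setting. Whether the core genes still differed from other genes there is therefore not shown.

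Rpl35, whose protein sits at the exit of the 60S peptide tunnel, stood furthest apart. It had 258 CPM in vehicle, 82.2 in sunitinib and 526 in sunitinib plus Yoda1 in smooth muscle-like cells, and 396, 130 and 505 CPM in endothelial-like cells. Its log2 ratio of sunitinib to vehicle was -1.65 (-1.69 to -1.60) and -1.61 (-1.80 to -1.41). The sunitinib library was the lowest in both classes, and in every one of smooth muscle-like clusters 0 to 6 Rpl35 lay between 246 and 278 CPM in vehicle and between 74.9 and 87.6 in sunitinib. In cluster 9, of few UMIs, it stood at 128 and 120 CPM on 24 and 51 UMIs. Rpl35 (ENSMUSG00000062997) lies on chromosome 2 at 39001580 to 39005624, minus strand, on mm10, and overlaps Wdr38 and Arpc5l on the other strand. It shares a stretch of 90 bases with the listed gene Gm2000, whose own level was 39.5 and 28.1 CPM in smooth muscle-like cells of vehicle and sunitinib (log2 ratio -0.49). The sources used here do not say how the counting divided reads between such copies.

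Rps29 and Rpl41, which encode very small proteins, and the longer Rpl10 were low as well. Rps29, a zinc-binding protein of the 40S head, had 1522, 920 and 1623 CPM in the smooth muscle-like cells of vehicle, sunitinib and sunitinib plus Yoda1 (sunitinib to vehicle -0.73, -0.74 to -0.71), and 2809, 1653 and 1950 CPM in endothelial-like cells (-0.77, -0.83 to -0.71). Rpl41, which encodes the smallest ribosomal protein, had 2165, 1350 and 1791 CPM (-0.68, -0.69 to -0.67) and 2888, 1821 and 1875 CPM (-0.67, -0.72 to -0.61). In both classes the sunitinib library was again the lowest for these genes, although Rpl41 in endothelial-like cells differed from the third library by less than the counting error. Rpl10, a 60S protein that is added late and is needed for the subunits to join, had 1312, 901 and 1088 CPM in smooth muscle-like cells (-0.54). In endothelial-like cells it had 1544, 981 and 644 CPM (-0.65, -0.73 to -0.58), so that the third library was the lowest there. The intervals of these genes lay wholly below 0.

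Rps28, Rps27, Rpl38 and Rps21 were also low, and they are named here after the ranking was seen. In smooth muscle-like cells their log2 ratios were -0.64, -0.62, -0.57 and -0.53, and in endothelial-like cells -0.64, -0.65, -0.61 and -0.56. Rpl38, which in mice is needed for the translation of a set of Hox messages, had 882, 594 and 903 CPM in smooth muscle-like cells. At the other end stood genes of large proteins. Rplp0, the base of the stalk that recruits translation factors, had 1501, 1633 and 1175 CPM in smooth muscle-like cells (0.12). Rpl5, which carries the 5S RNA into the ribosome and binds MDM2, had 1154, 1246 and 921 CPM (0.11), and Rpl3, at the peptidyl transferase centre, had 1160, 1248 and 876 CPM (0.10). In endothelial-like cells the highest were Rps2 (2080, 2291 and 1126 CPM; 0.14), Rpl14 (0.09) and Rpl7a (0.09).

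**Figure D2:**
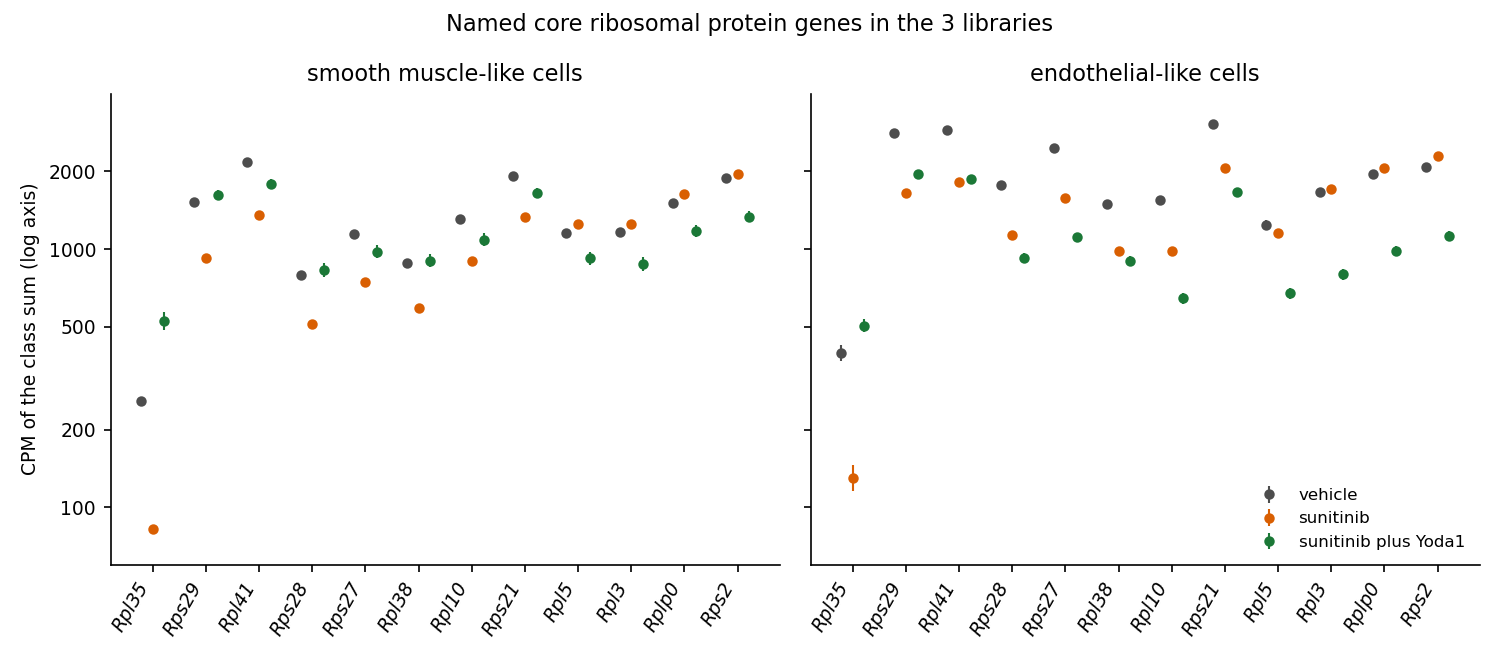
CPM of the class sum (log axis) of 12 core genes in the 3 libraries, in smooth muscle-like (left) and endothelial-like cells (right). Bars are 95% counting intervals, mostly smaller than the dots. Rpl35 in sunitinib stands at 82.2 and 130 CPM, below the other libraries in both classes, while Rplp0 and Rpl3 stand highest in sunitinib in smooth muscle-like cells.

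The order of the ratios followed the coding length. Across the 77 core genes, Spearman's rho between the log2 ratio of sunitinib to vehicle and the coding bases of the principal transcript was 0.845 in smooth muscle-like and 0.842 in endothelial-like cells, and 0.845 and 0.841 without Rpl35. The genes share the same 2 libraries and are not independent, so rho is a description. All 26 genes of the shortest tercile (75 to 405 coding bases) were below 0 in smooth muscle-like cells, with a median of -0.29, as were 18 of 26 in the middle tercile (median -0.04) and 4 of 25 in the longest (582 to 1257 bases; median 0.05). In endothelial-like cells these counts were 26 of 26, 23 of 26 and 7 of 25, with medians of -0.36, -0.04 and 0.03. The genes at least 1.5-fold lower all belonged to the shortest tercile, except Rpl10 (642 bases) in endothelial-like cells. The shortest tercile carried 33.2% of core UMIs in vehicle, 28.7% in sunitinib and 34.2% in sunitinib plus Yoda1 in smooth muscle-like cells. In endothelial-like cells it carried 35.4%, 30.6% and 36.7%. In the 6 other classes described above, all from the third library, it carried between 35.4% (fibroblast-like) and 39.7% (neutrophil-like). Both sunitinib values lay below all others. The lowest rho over 12 alternatives was 0.624 in smooth muscle-like cells, with up to 5% mitochondrial UMIs.

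**Figure D3:**
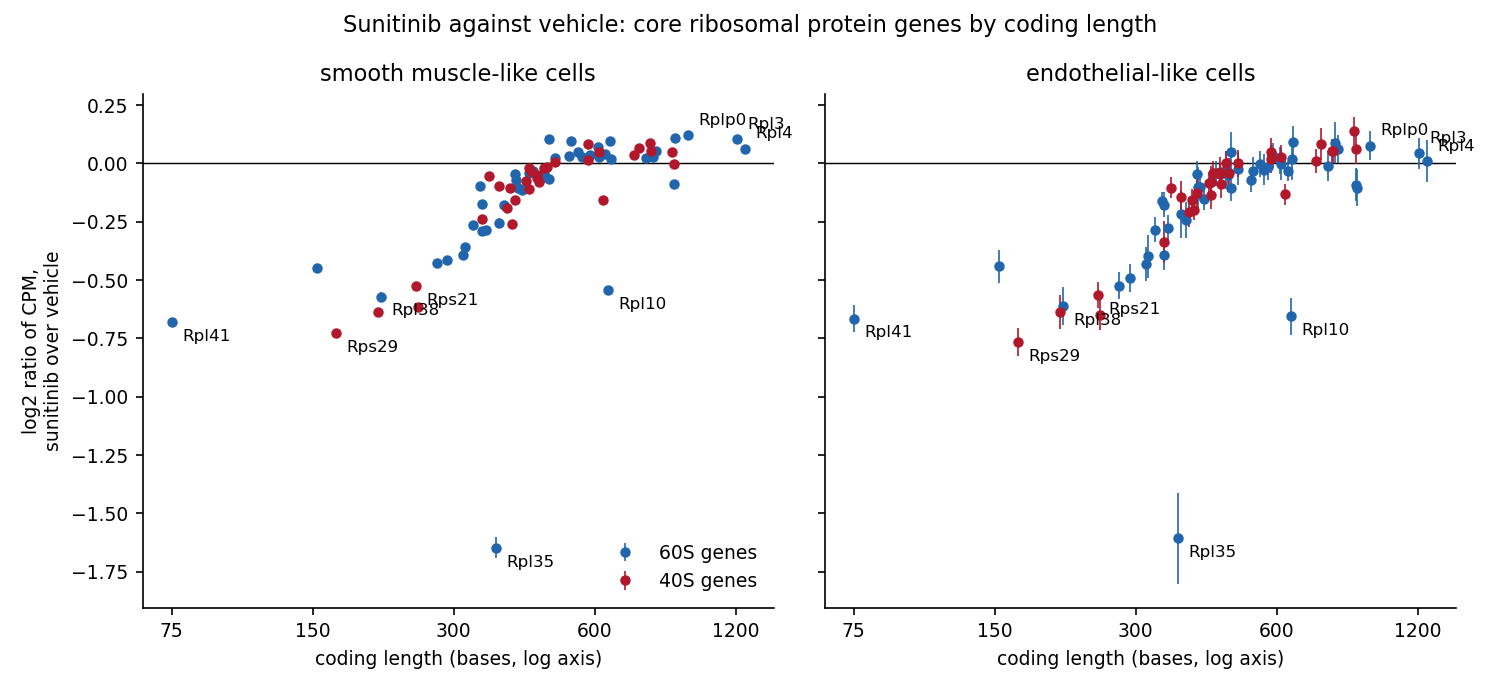
Log2 ratio of CPM, sunitinib over vehicle (vertical axis), against coding length in bases (log axis) for the 77 core genes, blue for the 60S and red for the 40S subunit, with 95% counting intervals. Ratios climb from -0.73 (Rps29) to 0.12 (Rplp0) with length in smooth muscle-like cells. The medians there are -0.03 at 400 to 600 bases, 0.04 at 600 to 900 and 0.10 at 900 to 1500 (3 genes). Rpl35 and Rpl10 lie below genes of similar length.

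The relation with length was not limited to ribosomal protein genes. Nuclear genes for subunits of the respiratory chain and the ATP synthase, another family with many small proteins, were taken for comparison after the pattern had been seen. Across 75 of them rho was 0.801 in smooth muscle-like cells, and across 73 it was 0.754 in endothelial-like cells. The median ratio was -0.04 over the 38 genes of up to 405 coding bases and 0.17 over the longer ones in smooth muscle-like cells (-0.03 over 37 genes and 0.19 in endothelial-like cells). Atp5k (213 bases) stood at 208 and 149 CPM in vehicle and sunitinib (-0.48, -0.52 to -0.44), and Ndufs1 (2181 bases) at 37.3 and 45.3 CPM (0.28, 0.20 to 0.36). Among genes of up to 300 bases the core genes were the lower ones: 9 core genes had a median of -0.57 in smooth muscle-like cells, and 272 other genes had 0.02. Over all 12463 other genes rho was -0.07. The cause of this order was not tested, and with 1 library in each group a property of the sunitinib library and an effect of the treatment cannot be told apart, also for the ratios of Rpl35, Rps29 and Rpl41.

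Copies of core genes complicate part of the ranking. A stretch of 90 bases was shared with another listed gene by 10 of the 77 core genes, Rpl35, Rpl41, Rps27, Rpl10, Rpl36a and Rplp2 among them. Without these 10, the number of core genes at least 1.5-fold lower with sunitinib was 2 in smooth muscle-like and 3 in endothelial-like cells, and rho was 0.870 and 0.869. The copies did not all move with the core gene. Rpl10-ps3 had 35.6 CPM in the vehicle and 68.3 CPM in the sunitinib library in smooth muscle-like cells (log2 ratio 0.94), where Rpl10 was lower with sunitinib. Wdr89, which shares a stretch with Rplp2, had a ratio of 0.70. Gm10076, which shares one with Rpl41, stood at 20.9, 13.6 and 92.7 CPM in the 3 libraries. Reads within such stretches cannot be told apart.

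The comparison of sunitinib plus Yoda1 with sunitinib sets against each other libraries that also differ in Cell Ranger version, depth and cell mix. It shares the sunitinib library with the comparison above, so the values stand side by side and no relation between the comparisons is given. In smooth muscle-like cells the core share was 10.51% with sunitinib and 9.36% with both compounds (95 cells). Of these 95 cells, 49 lay in cluster 8.1 and 33 in cluster 8.4 (core shares of 10.06% and 7.27%), and neither cluster held sunitinib cells. The smooth muscle-like cells compared thus came mostly from different clusters. Of the 77 core genes, 60 had a ratio below 0 (33.9% of 13163 genes) and 17 above (66.1%). The interval lay below 0 for 56 (11.2%) and above 0 for 14 (29.0%), and the median was -0.21 beside 0.34 over all genes. At least 1.5-fold lower was 1 core gene (9.54% of all genes), and 4 were higher (40.7%). The gene that was lower was Rps6, the 40S protein phosphorylated by S6 kinase downstream of mTOR, with 1333, 1396 and 896 CPM in vehicle, sunitinib and both compounds (-0.64, -0.73 to -0.55). Rps2 (-0.55) and Rpl3 (-0.51) came next. Rpl35 (2.68, 2.55 to 2.80), Rps29 (0.82), Rps28 (0.70) and Rpl38 (0.60) were the 4 that were higher. With TMM or median-of-ratios scaling, 27 and 28 core genes were at least 1.5-fold lower, and with short-intron genes as the denominator 0 were. Such a change of scale shifts the ratios of all genes alike. The share of all genes past 1.5-fold was not taken under these settings, so these counts have no background beside them. The core share among short-intron genes was 22.1%, 21.0% and 21.1% in smooth muscle-like cells of the 3 libraries.

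In endothelial-like cells the core genes were far lower in the library with both compounds. Their share was 15.67% with sunitinib and 8.86% with both, 74 of 77 genes had a ratio below 0 (41.2% of 10642 genes) and 3 above (58.8%), and 59 were at least 1.5-fold lower (20.7%), while 1 was higher (37.2%). The interval lay below 0 for 74 (23.4%) and above 0 for 2 (37.3%), and the median was -0.88 beside 0.22 over all genes. Rps3, a 40S protein at the entry of the message channel, had 2871, 2891 and 1153 CPM in vehicle, sunitinib and both compounds (-1.33, -1.39 to -1.26). The X-linked Rps4x had 2534, 2626 and 1087 CPM (-1.27). For these genes vehicle and sunitinib lay close together and the third library alone was low. Rpl35 (1.96, 1.77 to 2.15), Rps29 (0.24) and Rpl41 (0.04, -0.02 to 0.10) were highest. Among short-intron genes the core share was 31.2%, 30% and 20.2%, so that the third library stayed lowest on that denominator, with a median ratio of -0.65 to sunitinib.

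The endothelial-like cells of the 3 libraries were not the same population. In vehicle and sunitinib they fell into cluster 7 (173 and 227 cells), and in the third library 349 of 392 fell into cluster 15, led by the capillary genes Cd36, Fabp4 and Gpihbp1, with a core share of 8.68%. The 43 cells of the third library in cluster 7 had 10.11%, against 17.19% in vehicle and 15.67% in sunitinib. Within that cluster 48 core genes were at least 1.5-fold lower than in sunitinib, with a median of -0.66. The share and median over all genes were not taken within the cluster. In the whole endothelial-like class 20.7% of all genes were at least 1.5-fold lower. Haemoglobin genes gave 0.83% of endothelial-like UMIs in the third library, 0.00076% in vehicle and 0.00026% in sunitinib. The 5 contractile marker genes gave 0.02%, against 0.74% in vehicle and 0.99% in sunitinib. Median depth was 3978.5 UMIs against 8470 and 7040. When classes were taken from marker UMIs of single cells instead of clusters, the endothelial-like share of the third library was 14.8%. The part of these differences in the lower core share was not tested.

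Spearman's correlation of the ratio to sunitinib with coding length was -0.732 in smooth muscle-like and -0.639 in endothelial-like cells. The median in smooth muscle-like cells was 0.06 in the shortest tercile, -0.22 in the middle and -0.37 in the longest. In endothelial-like cells it was -0.51, -0.93 and -1.01. Set against vehicle, rho was -0.306 and -0.216, and the medians of the terciles lay closer together: -0.26, -0.28 and -0.31 in smooth muscle-like and -0.91, -0.96 and -0.97 in endothelial-like cells.

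Other genes of the ribosome and of 5'TOP messages were taken as lists by name. For sunitinib against vehicle, 17 of 18 translation factors with 5'TOP messages were above 0 in smooth muscle-like cells (64.3% of all genes), with a median of 0.08 beside 0.09 over all genes. The elongation factor gene Eef2 (0.24) and Eif4b (0.28) were highest, and Pabpc1 (-0.07) and Tpt1 (0.01) lowest. In endothelial-like cells 11 of 18 were above 0, close to the 63.0% of all genes (median 0.02 beside 0.11), from Eif3a (-0.11) and Eif3k (-0.07) to Eef1g (0.12) and Hnrnpa1 (0.14). Non-coding 5'TOP host genes of small nucleolar RNAs lay below 0 in 7 of 7 cases in smooth muscle-like cells (35.7% of all genes; median -0.27), with Snhg1 (57.1 and 38.7 CPM; -0.56) and Snhg8 (-0.39) lowest and Snhg5 (-0.22) and Snhg6 (-0.19) highest. In endothelial-like cells 5 of 7 did (37.0% of all genes; median -0.25), with Snhg8 (-0.51) and Snhg12 (-0.49) lowest and Snhg5 (0.12) and Snhg1 (0.14) highest, so that Snhg1 lay on different sides of 0 in the 2 classes, its endothelial-like interval (-0.21 to 0.48) spanning 0.

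Genes of ribosome biogenesis lay below 0 in 18 of 25 cases in smooth muscle-like cells (35.7% of all genes; median -0.09), led by the nucleolar GTPase gene Gnl3 (-0.47) and the RNA polymerase I subunit gene Polr1a (-0.32), with Pes1 (0.14) and Nhp2 (0.34) highest. In endothelial-like cells 5 of 24 did (37.0% of all genes; median 0.14), with Rrn3 (-0.93, -1.72 to -0.16) and Nop58 (-0.30) lowest and Tsr1 (0.43) and Nol6 (1.36, 0.16 to 2.72) highest. Regulators of 5'TOP translation had medians of 0.05 and 0.01. Larp1, the 5'TOP-binding repressor, stood at -0.28 and Eif4ebp2 at -0.14 in smooth muscle-like cells, with Eif4ebp1 (0.44) and Tsc1 (0.47) highest. In endothelial-like cells the extremes were Tsc2 (-0.43), Tsc1 (-0.14), Rps6kb1 (0.47) and Larp4 (0.56). Mitochondrial ribosomal protein genes, which build a separate ribosome, were above 0 in 68 of 78 cases in smooth muscle-like cells (64.3% of all genes) and 64 of 78 in endothelial-like cells (63.0%), with medians of 0.16 and 0.20 beside 0.09 and 0.11 over all genes. Outside the symbol rule, Fau had -0.11 and -0.22 and Rack1 0.05 and 0.03.

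With both compounds against sunitinib, the 5'TOP factors were lower together with the core genes. Of these, 18 of 18 were below 0 in smooth muscle-like cells (33.9% of all genes; median -0.43), led by Eef1a1 (-0.61) and Eif3h (-0.59), with Eif3a (-0.17) and Hnrnpa1 (-0.15) highest. In endothelial-like cells 17 of 18 were (41.2% of all genes; median -0.94). Tpt1, which encodes translationally controlled tumour protein, went from 10140 to 3286 CPM (-1.63, -1.66 to -1.59) and Eef1d stood at -1.24, and Pabpc1 (-0.32) and Eif3a (0.0002) were highest. The host genes had medians of -0.53 and -0.73, and biogenesis genes -0.05 and -0.06. Regulators of 5'TOP translation had medians of 0.54 and 0.55, with the mTOR complex 1 subunit gene Rptor highest in both classes (1.63 and 2.19). Over all genes of the quintile with the longest introns the medians were 1.05 and 1.16, and over the quintile with the shortest 0.004 and -0.39. For the core genes in that shortest quintile they were -0.21 and -0.87.

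Within the core set, UMIs were spread over many genes. Among those with the most UMIs in vehicle smooth muscle-like cells were the stalk gene Rplp1 (213796, or 2.69% of core UMIs), Rpl13 (198947), Rps23 (176470) and Rps3a1 (162746). The 3 with the fewest were Rpl36a (50707), Rpl31 (46270) and Rpl35 (18171). Each molecule is counted at its 3' end, so these are counts of tags and no order of levels per length is read from them. The 40S genes gave 43.2%, 43.4% and 43.2% of core UMIs in smooth muscle-like cells of the 3 libraries, and 44.98%, 45.5% and 44.9% in endothelial-like cells. In the third library they gave 47.1% in B cell-like and 47.2% in T cell-like cells and 41.3% (40.5 to 42.0) in Schwann-like cells.

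The make-up of the core set differed between classes of the third library, most of all in neutrophil-like cells. As a share of core UMIs, Rps27 stood at 2.13% in B cell-like and 1.04% in smooth muscle-like cells (log2 ratio of shares 1.03, 0.94 to 1.11), and Rps24 (0.76) and Rps19 (0.74) were next highest. Among the lowest were Rpl23a, at 0.47% in B cell-like and 0.84% in smooth muscle-like cells (-0.84, -0.94 to -0.74), and Rpl10 (-0.78). Neutrophil-like cells, which stood out after the values were seen, gave 4.64% of core UMIs to Rps9, against 1.97% in macrophage-like and 1.25% in fibroblast-like cells. They gave 3.25% to Rps27. Rpl3 took 0.18% there on 13 UMIs, against 1.09% in Schwann-like cells, and Rps4x 0.44% against 1.58% in fibroblast-like cells. The neutrophil-like values rest on 7299 core UMIs of 59 cells, and free RNA of the other classes in the droplets was not separated from them.

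**Figure D4:**
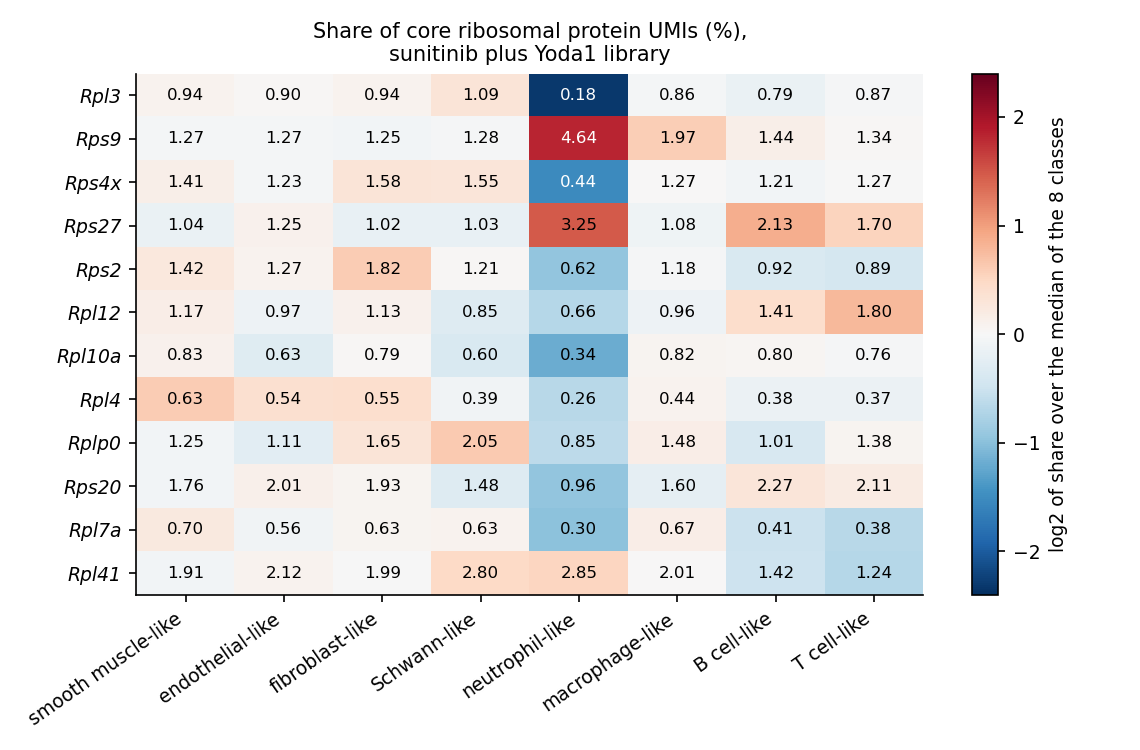
Share of core UMIs (%) taken by the 12 core genes with the widest range over the 8 named classes of the sunitinib plus Yoda1 library. Colour is the log2 of the share over the median of the classes; neutrophil-like cells hold the extremes for most of these genes, for example 0.18% for Rpl3 and 4.64% for Rps9.

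The paralogues, taken by the rule beside the core genes, differed in how they were spread over the classes. Rps27l, a paralogue of Rps27 that p53 induces, had 324, 312 and 271 CPM in smooth muscle-like cells and 291, 299 and 221 CPM in endothelial-like cells of vehicle, sunitinib and sunitinib plus Yoda1. In the third library it had 401 CPM in macrophage-like and 296 in fibroblast-like cells, but 99.7 in B cell-like and 76.5 in T cell-like cells. Rps27 ran the opposite way there, at 1479, 1316, 4743 and 5188 CPM. Of the UMIs of the pair, Rps27l therefore held 21.3% in macrophage-like cells (20.05 to 22.7) and 1.45% in T cell-like cells (1.32 to 1.59). Its share in smooth muscle-like cells was 22.1% in vehicle and 29.5% in sunitinib, while its own ratio was -0.05 and that of Rps27 -0.62. The coding sequences of the pair are 76.2% identical and share at most 11 bases in a row.

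Rpl22l1, the paralogue of the T cell development gene Rpl22, held 32.4%, 34.3% and 34.2% of its pair in smooth muscle-like cells and 26.0%, 27.7% and 22.8% in endothelial-like cells. In the third library it held 39.4% in fibroblast-like, 31.4% in T cell-like and 23.7% in macrophage-like cells, and its CPM was highest in T cell-like cells (915). Rpl36al held 43.1%, 48.6% and 36.8% of its pair in smooth muscle-like cells, 51.2% in macrophage-like and 28.4% in T cell-like cells. As for Rps27l, the higher share with sunitinib went with a lower parent, Rpl36a (719 and 560 CPM), and Rpl36al itself stood at 545 and 529 CPM. The 2 tissue-restricted paralogues Rpl3l and Rpl39l were close to absent: Rpl3l had 0, 1 and 6 UMIs in all kept cells of the 3 libraries and Rpl39l 17, 19 and 16. The few Rpl39l UMIs were unevenly spread. Endothelial-like cells held 4 of 17 in vehicle (2.04 CPM), 12 of 19 in sunitinib (5.24 CPM) and 0 in the third library. There, T cell-like cells held 13 of 16 (2.24 CPM). Rpl10l had 0 UMIs in each library, against a floor of 3 UMIs that allows up to 0.041, 0.046 and 0.138 CPM. Rps27rt, whose coding sequence is identical to that of Rps27, took 5.20%, 7.37% and 2.71% of its pair in smooth muscle-like cells, and the 2 genes cannot be separated in these counts. The 2 genes taken by the rule that encode no ribosomal protein, Rpl7l1 (43.9 and 53.1 CPM; 0.27) and Rps19bp1 (26.4 and 25.2 CPM; -0.07), were rare in smooth muscle-like cells.

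**Figure D5:**
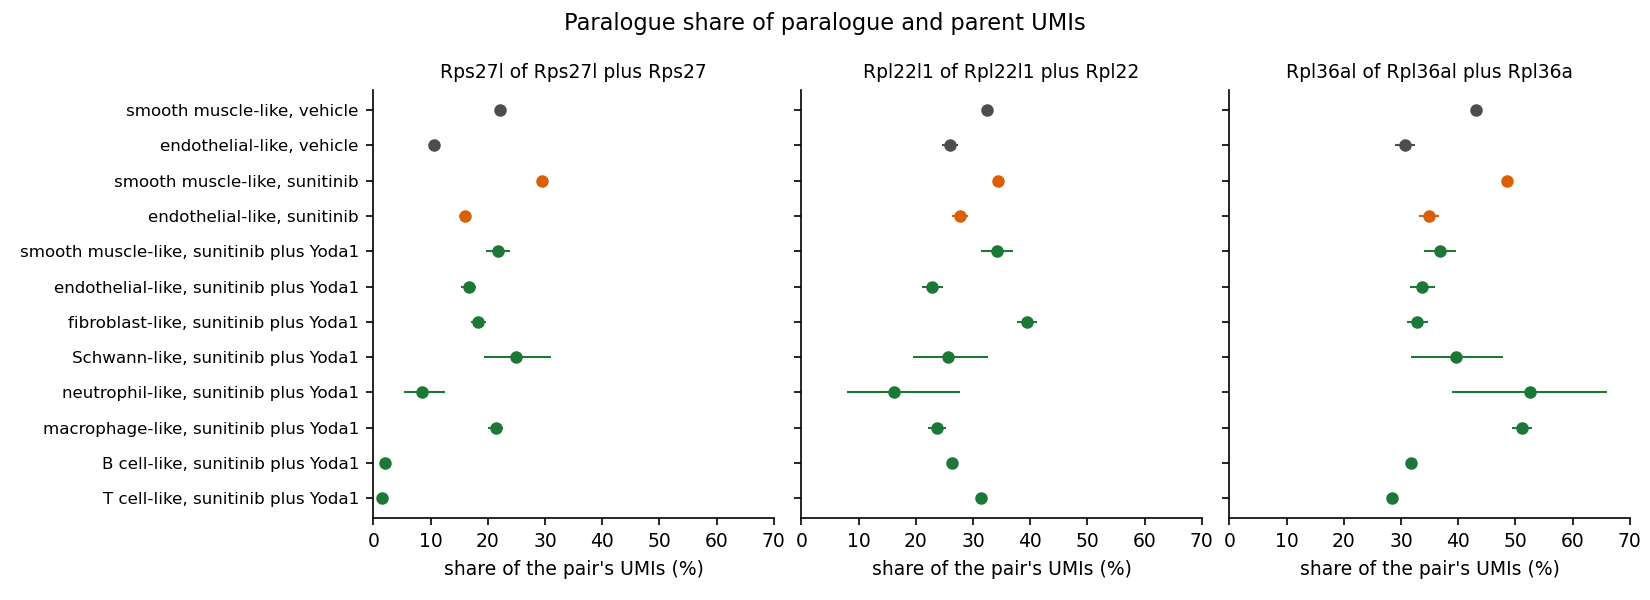
Share of the paralogue in the UMIs of paralogue and parent (%, horizontal axis) for Rps27l, Rpl22l1 and Rpl36al by class and library, with 95% counting intervals. Rps27l ranges from 29.5% in smooth muscle-like cells of the sunitinib library to 1.45% in T cell-like cells, whereas Rpl22l1 lies between 22.8% and 39.4% in all classes shown except the neutrophil-like one.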

How the data were processed

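The authors deposited 1 matrix of raw UMI counts per library, not normalized; build mm10, Cell Ranger and Seurat are named per the submitters' processing notes, and Cell Ranger 6.0.0 and 7.1.0 per the file headers. The gene annotation, and whether intronic reads or strand were used, are not stated in the sources used here. The matrices summed to 73901343, 66769480 and 28364203 UMIs. A barcode counted as a cell from 500 UMIs and 300 genes on, with up to 15% of UMIs mitochondrial (544, 358 and 1988 barcodes left out). Libraries shared 3, 3 and 8 barcodes in pairs. Scrublet marked 4, 0 and 11 cells, too few to have worked, so doublets stayed in. Cells were clustered (scanpy 1.11.5, 2000 variable genes, 30 components, 15 neighbours, Leiden resolution 1.0) without ribosomal protein genes, and clusters with 20% or more cells carrying another class's markers were split. A cluster took a class when at least 3 of the class's markers were 2-fold above their median over clusters and seen in 25% of its cells, unless its top 10 genes held as many markers of another class. Counts were summed per class and library (at least 50 cells) and given as CPM; genes needed 20 UMIs in the 2 libraries. Shares carry exact binomial and ratios exact conditional binomial intervals. UMI sums were chosen over edgeR's test because each group has 1 library; edgeR 4.0.16 (R 4.3.3) gave TMM factors as an alternative. Coding length is that of the GENCODE vM21 principal transcript. Named genes were the 3 highest and 3 lowest ratios per class and comparison, the 5 and 3 extremes of UMIs, the 3 and 3 of B cell-like against smooth muscle-like cells, all paralogues, and 2 and 2 of each other list; genes withheld from this text are not reported here. The members and lists were chosen with earlier results of these data known. Scripts were tested on simulated data.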

Additional observations from a re-analysis of the deposited data

Results flagged for a closer look

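Some core genes lay on opposite sides of 0 in the smooth muscle-like and endothelial-like cells under the same contrast, with neither counting interval reaching 0. The differences between the classes were not tested. The same count was not taken over all genes, so the numbers below have no background share beside them. Over all core genes, the median of both compounds against sunitinib was -0.21 in smooth muscle-like and -0.88 in endothelial-like cells. For sunitinib against vehicle Rpl5 did so (0.11 in smooth muscle-like and -0.10 in endothelial-like cells). With both compounds against sunitinib there were 11 of 77, each above 0 in smooth muscle-like and below 0 in endothelial-like cells: Rps28 (0.70 and -0.30), Rpl38 (0.60 and -0.13), Rps27 (0.39 and -0.50), Rps21 (0.31 and -0.31), Rpl10 (0.27 and -0.61), Rpl36a (0.23 and -0.52), Rpl36 (0.22 and -0.36), Rpl39 (0.21 and -0.46), Rpl37a (0.17 and -0.38), Rplp2 (0.14 and -0.39) and Rps24 (0.12 and -0.69).

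In barcodes that the cell filters left out, the core genes still took 2.38%, 2.81% and 2.01% of UMIs in vehicle, sunitinib and sunitinib plus Yoda1, at median mitochondrial shares of 49.4%, 34.9% and 15.3%. Cluster 9, smooth muscle-like cells of few UMIs, stood at 6.40% in vehicle and 11.35% in sunitinib, opposite to the other 7 smooth muscle-like clusters.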

How the results depend on the processing

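With 1 library in each group, depth limits only the counting error; the spread between animals is unknown, and leaving out replicates could not be done. No paired analysis was possible because each group is 1 library and shares replicate number 1 only. The cause of the changes below was not tested where the setting does not itself show it. Where a setting changes the cells, the scaling or the denominator, counts and medians of core genes have no value over all genes beside them.

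Values are in the order vehicle, sunitinib, sunitinib plus Yoda1, as the core share (%) of all kept cells, then of smooth muscle-like, then of endothelial-like cells. Against main shares of 11.43, 10.69 and 19.55, then 11.27, 10.51 and 9.36, then 17.18, 15.67 and 8.86, leaving mitochondrial and haemoglobin genes out of the denominator gave 12.20, 11.49 and 21.00, then 12.04, 11.31 and 10.06, then 17.90, 16.34 and 9.42. Leaving out immunoglobulin and contractile genes too gave 12.77, 12.13 and 21.28, then 12.62, 11.96 and 10.45, then 18.04, 16.51 and 9.42. Among genes with the shortest introns the shares were 22.39, 21.33 and 36.87, then 22.13, 20.99 and 21.12, then 31.23, 30 and 20.20. The mean over cells gave 11.54, 10.83 and 20.0006, then 11.31, 10.54 and 9.61, then 16.37, 15.48 and 8.42. All symbols of the rule gave 11.58, 10.83 and 19.70, then 11.42, 10.65 and 9.47, then 17.33, 15.81 and 8.94. Cells of up to 5% mitochondrial UMIs gave 12.68, 13.13 and 18.83, then 11.96 and 11.98, then 17.99, 16.39 and 9.13. The third library's smooth muscle-like cells were too few for that setting. No limit on mitochondrial UMIs gave 11.35, 10.58 and 19.24, then 11.20, 10.40 and 10.33, then 17.27 for vehicle and 9.18 for both compounds. Without the highest Scrublet scores the shares were 11.42, 10.68 and 19.65 over all cells, 9.31 in the smooth muscle-like cells of the third library, and 17.71, 16.14 and 8.78 in endothelial-like cells. Classes taken from single cells gave 11.30, 10.55 and 9.70 in smooth muscle-like and 17.79, 16.18 and 14.77 in endothelial-like cells. Resolution 0.5 gave 9.62 in the smooth muscle-like cells of the third library and 17.29, 15.79 and 8.62 in endothelial-like cells.

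For sunitinib against vehicle in smooth muscle-like cells, the median log2 ratio of -0.05 became -0.134 with TMM scaling, -0.137 with median-of-ratios scaling, -0.054 as a mean over cells, -0.013 with short-intron genes as denominator, -0.040 without the genes sharing 90 bases, -0.067 in the largest cluster and -0.051 without cluster 9. It turned to 0.061 in cells of up to 5% mitochondrial UMIs. The count of 5 genes at least 1.5-fold lower became 8 with either scaling, 2 without the sharing genes and 1 in cells of up to 5% mitochondrial UMIs. In endothelial-like cells the median of -0.08 became -0.189 with either scaling, -0.025 as a mean over cells, -0.070 at resolution 0.5 and -0.045 without the sharing genes, and turned to 0.0029 with short-intron genes as denominator. The count of 7 became 2 with that denominator and 3 without the sharing genes.

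For both compounds against sunitinib in smooth muscle-like cells, the median of -0.21 became -0.504 with TMM and -0.510 with median-of-ratios scaling, -0.224 without high Scrublet scores, -0.180 as a mean over cells, -0.172 at resolution 0.5, -0.047 with short-intron genes as denominator and -0.226 without the sharing genes. The count of 1 became 27, 28 and, with short-intron genes, 0. In endothelial-like cells the median of -0.88 became -1.07 and -1.08 with these scalings, -0.909 without high Scrublet scores, -0.931 as a mean over cells, -0.913 at resolution 0.5, -0.648 with short-intron genes, -0.891 without the sharing genes, -0.891 in cells of up to 5% mitochondrial UMIs and -0.659 in cluster 7. Settings for cluster 7, cluster 9, Rpl35 and the sharing genes were chosen after seeing the data. Of the values under other settings, 115 moved, 2 reversed and 52 did not move for the main results. For named genes and other results 163 moved and 242 did not.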
